A study of Mus musculus with 2 samples.

Results

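Mir541, Mir409, Mir412, Mir369 and Mir410 are 5 microRNA (miRNA) hairpins near the distal end of the imprinted Dlk1-Dio3 miRNA cluster, and their short fragments were followed in mouse embryonic stem cells with and without SB431542. The members were taken as reads of 15 to 17 nt that match one of these hairpins exactly, over their full length and on the sense strand. They belong to 1174 annotated mouse miRNA hairpins with a gene name beginning with Mir, of which 342 had such a read. Fragments of 4 of the 5 hairpins were found, in 19 distinct sequences. The members were chosen by their genome position, with the read counts of both libraries in view, and the spread of miR-409-3p starts was taken as the subject from the same reads. Levels and start positions below are therefore a description and carry no test.

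The cells were J1, a line of strain 129S4/SvJae whose tissue is labelled as inner cell mass, adapted to gelatin and grown on it with Knockout Serum Replacement, and both groups had leukaemia inhibitory factor (LIF) in the medium at 1000 U/mL. The treated cells received 3 µM SB431542, an inhibitor of the kinases of the activin, Nodal and TGF-beta type I receptors, for 24 h, and the control cells an equal volume of its solvent DMSO for 24 h. Since 1 library stands for each group, the differences could not be set against a spread between replicates, and every interval is a 95% interval of counting error alone. The reads analysed were 3 to 17 nt long, 1190074 with DMSO and 645925 with SB431542, which are totals of a length class and not library depths. Full-length miRNAs are not analysed here, so each value is a level of fragments.

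A miRNA hairpin is cut from its primary transcript by Drosha and trimmed of its loop by Dicer, and either strand of the remaining duplex, the 5p or the 3p arm, can be loaded into an Argonaute protein. Bases 2 to 8 of the mature arm, the seed, pair with target messenger RNAs, so a molecule that begins a base later presents a shifted seed. The noncoding RNAs of the Dlk1-Dio3 domain, among them Meg3, Rian and Mirg, the host transcripts of its miRNAs, are expressed from the maternal chromosome. Silencing of these noncoding RNAs has marked mouse induced pluripotent lines of poor developmental potential.

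All 5 hairpins lie on the plus strand of chromosome 12 within Mirg (109729764 to 109749460, GRCm38). Mir541 occupies 109742409 to 109742498 and Mir409 109743158 to 109743236, both outside the annotated exons of Mirg. Mir412, at 109743289 to 109743368, has 12 of its 80 bases in a Mirg exon, and Mir369, at 109743418 to 109743496, has 1 of 79. Mir410, at 109743715 to 109743795, lies wholly within a Mirg exon. The members therefore span both intronic and exonic positions of the same host RNA.

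The Mir409 hairpin is printed first because nearly all member reads come from it, with capitals marking the bases covered by its main fragments, bases 1 to 17 of the mature 3p arm. The mature arms that had a read follow, with the seed in capitals. Sequences are those of RefSeq for GRCm38.p6, in which all 5 hairpins were identical to the GENCODE ones and all 10 mature arms were found.
Mir409 hairpin: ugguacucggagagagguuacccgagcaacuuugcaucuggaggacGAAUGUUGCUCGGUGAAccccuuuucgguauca
miR-409-3p: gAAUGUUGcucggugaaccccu
miR-409-5p: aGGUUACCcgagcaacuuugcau
miR-410-3p: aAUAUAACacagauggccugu
miR-410-5p: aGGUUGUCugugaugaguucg
miR-541-5p: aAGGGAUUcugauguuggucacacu
miR-369-5p: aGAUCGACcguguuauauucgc

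No seed was shared between members, so the arms form no common target family. The seed of miR-409-3p occurred in no other RefSeq mouse miRNA. That of miR-410-3p was shared with miR-344d-3p and miR-344e-3p, and that of miR-410-5p with miR-494-5p, an arm of the same cluster upstream of the annotated Mirg.

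miR-409-3p supplied 99.8% of the members' reads in either library. It had 7531 reads with DMSO (exact Poisson interval 7362 to 7703) and 1978 with SB431542 (1892 to 2067). In both libraries it was the 4th most abundant of 431 arms with a read. The opposite strand, miR-409-5p, had 2 and 1 reads, all of 1 sequence of 16 nt that begins at base 1 of that arm. No read of 15 to 17 nt was antisense to any member hairpin, although an annotated miRNA gene, Gm24321, lies on the opposite strand at Mir409.

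The other members were near the limit of detection. miR-410-3p was the next most abundant, with 8 reads with DMSO (3.45 to 15.8) and 1 with SB431542. Its 3 distinct sequences, of 15, 16 and 17 nt, all began at base 1. miR-410-5p had 1 read in each library. miR-541-5p had 3 reads with DMSO and 0 with SB431542, and 2 of the 3 began at base 1. miR-369-5p, of a hairpin whose 3p arm is known for binding an AU-rich element of the tumour necrosis factor message, had 1 read with DMSO and 0 with SB431542. Neither arm of Mir412, and neither miR-369-3p nor miR-541-3p, had a read. As a one-sided limit, narrower than the Poisson intervals given for reads, a count of 0 allows up to 3 reads, or 38.5 reads per 1000000 miRNA reads (RPM) with DMSO and 137 with SB431542. From miR-410-3p down to the arms at 0, neighbours in this order had overlapping counting intervals. Without miR-409-3p the members had 15 reads with DMSO and 3 with SB431542, a log2 ratio of -0.31 (-2.92 to 1.34), so no difference was detectable at this depth.

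**Figure D1:**
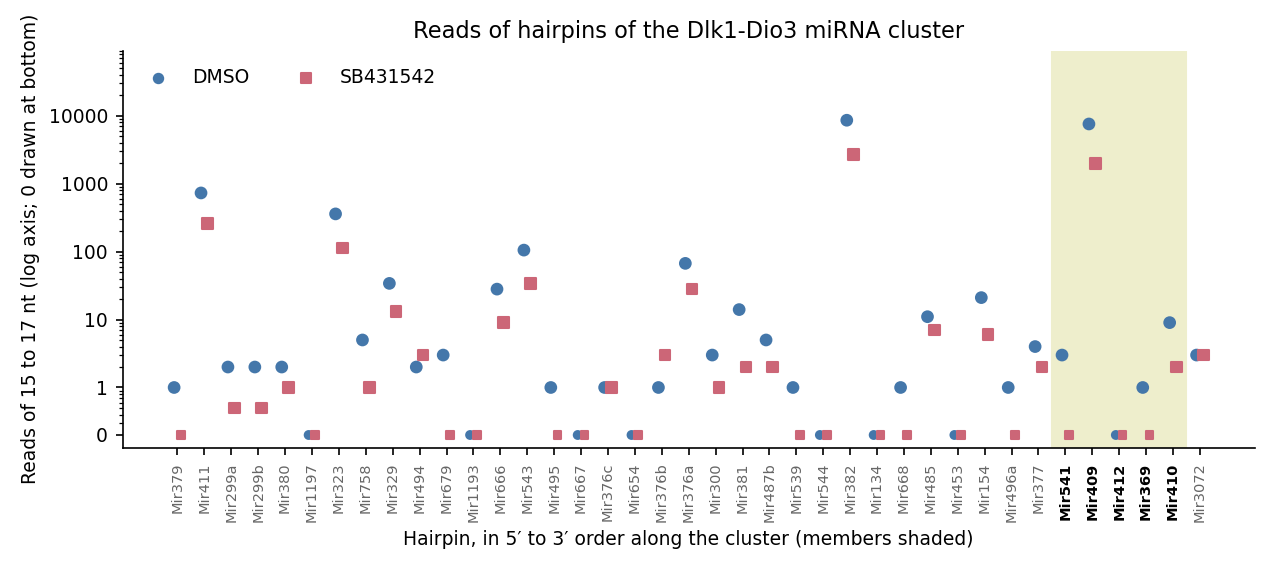
Reads of 15 to 17 nt for each of 39 hairpins of the cluster, in 5′ to 3′ order and on a log axis with 0 drawn at the bottom, for DMSO (circles) and SB431542 (squares). Among the shaded members Mir409 stands at 7533 and 1979 reads and the others at 9 or fewer, and values of 0.5 are reads divided between identical sequences.

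The hairpins on either side of the members were as sparse as the members other than Mir409. Mir154, Mir496a, Mir377 and Mir3072 together had 29 reads in the DMSO library and 11 in the other. Most came from miR-154-5p, with 18 and 6 reads. The rest were miR-154-3p with 3 and 0, miR-496a-3p with 1 and 0, miR-377-5p and miR-377-3p each with 2 and 1, miR-3072-5p with 1 and 2 and miR-3072-3p with 2 and 1. The list held 34 other hairpins of the cluster, from Mir379 to Mir3072, of which 9 lie inside the annotated Mirg and the rest upstream of it. Of the 34, 27 had a read and 29 had under 50 over both libraries, as the plot of reads along the cluster shows. Their most abundant arms were miR-382-5p with 8538 and 2667 reads, miR-411-5p with 728 and 257, and miR-323-3p with 358 and 113. Mir409 and Mir382 thus stood apart from the hairpins between and around them.

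In RPM, miR-409-3p was at 96644 with DMSO (94474 to 98852) and 90605 with SB431542 (86656 to 94688). Its log2 ratio, SB431542 over DMSO, was -0.09 (-0.17 to -0.02). Over the 45 arms with at least 50 reads in all, the median log2 ratio was 0.13. Of these arms 6.67% were at least 2-fold higher and 4.44% at least 2-fold lower, while the single member arm among them was neither. The size of the ratio depended on the total, and its sign on a correction for base composition. Per reads of 15 to 17 nt the log2 ratio was -0.99 (-1.06 to -0.92), and after a correction for GC content the RPM ratio was 0.02. All miRNA reads together made up 7.87% of the reads of 15 to 17 nt with DMSO and 4.22% with SB431542. A log2 shift of -0.90 in the ratio per those reads is therefore common to every arm and not particular to miR-409-3p. The mean GC content was 60.7% with DMSO and 64.2% with SB431542 over all reads of 15 to 17 nt, and 47.3% and 47.0% over those of miR-409-3p. In bulk RNA, fewer cells of a kind and less of an RNA in each cell cannot be told apart.

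Within the cluster no library total is needed. The members made up 43.1% of the reads of all 39 listed hairpins with DMSO (Clopper-Pearson interval 42.4 to 43.9; 7546 of 17499) and 38.6% with SB431542 (37.2 to 39.9; 1981 of 5138). Against miR-382-5p alone, miR-409-3p held 46.9% of the pair's reads with DMSO (46.1 to 47.6) and 42.6% with SB431542 (41.2 to 44.0). Against the other cluster arms without miR-382-5p it held 84.2% (83.4 to 84.9) and 80.1% (78.5 to 81.7). Relative to the rest of the cluster, miR-409-3p was thus lower in the SB431542 library beyond counting error. Reads of miR-382-5p had a mean GC content of 49.7% in either library, above that of miR-409-3p. The log2 ratio in RPM was 0.18 for the other 34 hairpins and -0.09 for the members' sum, and after the GC correction 0.19 and 0.02. The part of base composition in this difference was not tested. Against miR-293-3p, the most abundant arm of these stem cells, miR-409-3p held 16.2% of the pair's reads with DMSO (15.9 to 16.5), inside the interval of 15.4% to 16.7% with SB431542.

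The reads of the labelled cell type were present: the 7 hairpins of the Mir290 cluster, typical of mouse embryonic stem cells, all had reads and summed to 507334 RPM with DMSO and 481609 with SB431542. Nearly all of this sum was the single arm miR-293-3p, at 499506 RPM with DMSO and 474509 with SB431542. Hairpins typical of fibroblasts and feeder cells summed to 3313 and 2474 RPM, with 7 of 9 detected. Hairpins typical of neural cells stood at 411 and 275 RPM, with 6 of 6 detected, and those of blood cells at 89.8 and 91.6, with 2 of 5 detected. The neural list holds only Mir9 and Mir124a, each at several loci. Reads matching several hairpins were divided among them, so those 6 need not be separate detections. The lists of other cells had from 3 to 4 hairpins at 0 with SB431542 and from 0 to 3 at 0 with DMSO. Their part in the values of miR-409-3p was not tested.

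The fragments of miR-409-3p were 10 distinct sequences, all 10 with DMSO and 8 with SB431542. The 6 most abundant are shown because their first and last bases carry the pattern described next. They are given as read, 5′ to 3′ with T for U, and capitals mark the bases of the mature seed that each one holds.
bases 1 to 17: gAATGTTGctcggtgaa
bases 1 to 16: gAATGTTGctcggtga
bases 2 to 17: AATGTTGctcggtgaa
bases 2 to 16: AATGTTGctcggtga
bases 0 to 16: cgAATGTTGctcggtga
bases 2 to 18: AATGTTGctcggtgaac

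Positions are counted from base 1 of the mature arm, and base 0 is the hairpin base before it. The fragment of bases 1 to 17 had 2713 reads with DMSO and 797 with SB431542, and that of bases 1 to 16 had 1917 and 407. Without the first base, bases 2 to 17 had 1428 and 452 reads, and bases 2 to 16 had 1112 and 244. These 4 sequences made up 95.2% of the arm with DMSO and 96.1% with SB431542. The fragment of bases 0 to 16 had 239 and 41 reads, and that of bases 2 to 18 had 79 and 24. Of the remaining sequences, bases 1 to 15 had 36 and 12 reads, and that sequence also occurs in another annotated transcript. The last 3 had from 1 to 5 reads with DMSO. Every fragment thus began within 2 bases of the mature start, and all but 1 DMSO read, which began at base 3, held the full seed.

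**Figure D2:**
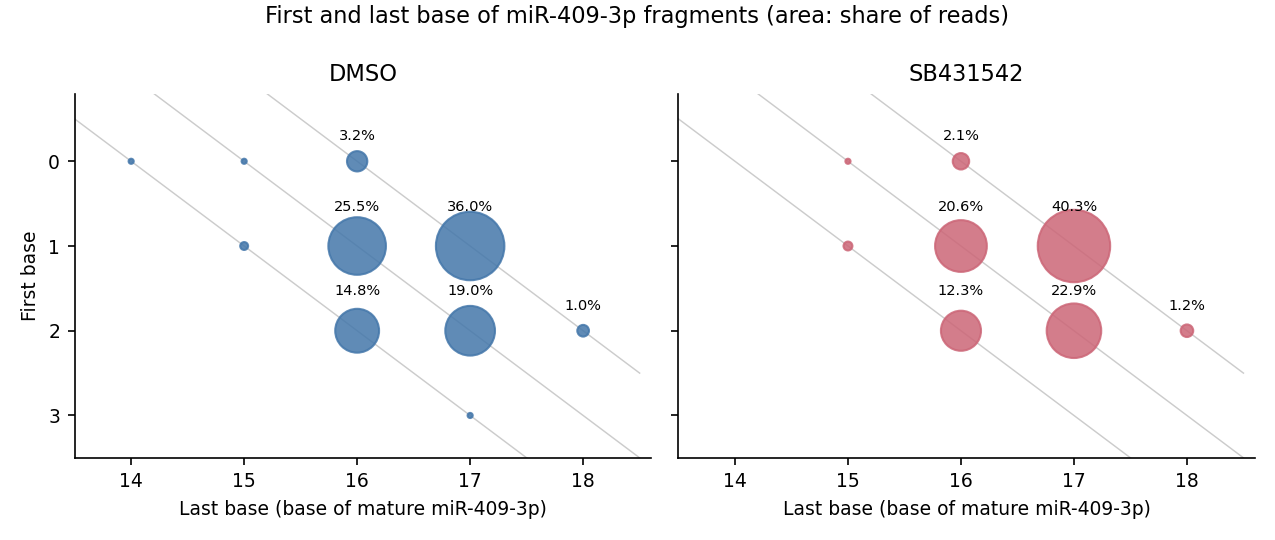
Each point is a distinct miR-409-3p sequence placed by its first base (vertical axis) and last base (horizontal axis) in the mature arm, with its area proportional to its share of the arm's reads and shares under 0.2% drawn at a fixed small size; grey lines join sequences of equal length. The 4 large points form a block of starts 1 and 2 by ends 16 and 17, and its column at end 17 is larger with SB431542.

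Taken over all lengths, the shares of starts 1 and 2 had overlapping intervals in the libraries. That of start 0 was lower with SB431542, with intervals only just apart. Base 1 was the first base of 62.0% of miR-409-3p reads with DMSO (60.8 to 63.1; 4666 of 7531) and 61.5% with SB431542 (59.3 to 63.6; 1216 of 1978). Base 2 was the first base of 34.8% (33.7 to 35.9) and 36.4% (34.3 to 38.6). Base 0 was the first base of 3.25% (2.86 to 3.68) and 2.12% (1.53 to 2.86). The fragments that lacked the first mature base carry the seed from their own first base on.

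Split by length, the starts changed from one class to the next. Of the 15 nt fragments, 96.7% began at base 2 with DMSO (95.5 to 97.7; 1112 reads) and 95.3% with SB431542 (92.0 to 97.6; 244 reads). Of the 17 nt fragments, 89.5% began at base 1 with DMSO (88.4 to 90.6; 2713 of 3031) and 92.5% with SB431542 (90.5 to 94.1; 797 of 862). The commonest start thus moved a base upstream between the shortest and the longest class in both libraries. Since nearly all reads ended at base 16 or 17, as given below, this move largely follows from the split by length itself.

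The 16 nt fragments were divided, and here the libraries stood apart. Base 1 was the start of 57.2% of them with DMSO (55.5 to 58.9; 1917 of 3350) and 47.3% with SB431542 (43.9 to 50.7; 407 of 860). Base 2 was the start of 42.6% (40.9 to 44.3) and 52.6% (49.2 to 55.9). For each of these bases the counting intervals of the libraries did not overlap. The commonest start of 16 nt fragments was base 1 with DMSO and base 2 with SB431542. With SB431542, however, the intervals of bases 1 and 2 overlapped, so which of them led there was within counting error. Base 0 was the start of 7.89% of the 17 nt fragments with DMSO (6.95 to 8.90) and 4.76% with SB431542 (3.43 to 6.40). A 17 nt fragment of start 0 ends at base 16, and among reads of that last base the shares of start 0 had overlapping intervals.

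**Figure D3:**
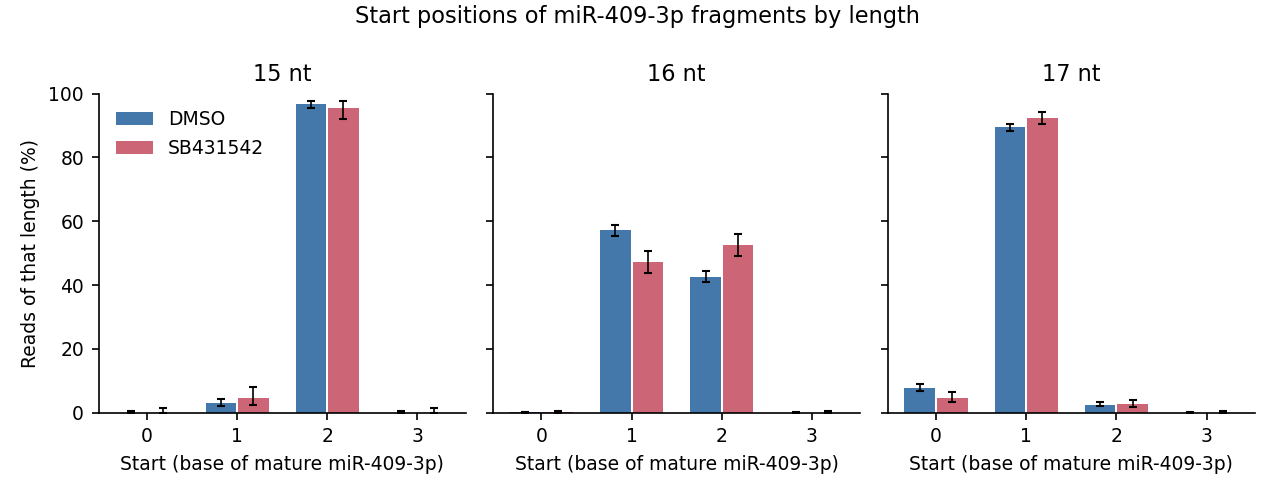
Share of miR-409-3p reads of 15, 16 and 17 nt that begin at bases 0 to 3 of the mature arm, in percent, with 95% Clopper-Pearson intervals as error bars. Base 2 leads at 15 nt and base 1 at 17 nt in both libraries. At 16 nt the leading base is 1 with DMSO (57.2%) and 2 with SB431542 (52.6%), where the intervals of bases 1 and 2 overlap.

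The split at 16 nt followed the last bases. Almost all reads ended at base 16 or 17 whatever their start: 43.4% ended at base 16 and 55.0% at base 17 with DMSO, against 35.0% and 63.1% with SB431542. A fragment of 16 nt therefore either began at base 1 and ended at 16 or began at base 2 and ended at 17. At a given last base the starts were alike. Among reads of starts 1 and 2 that ended at base 16, start 2 held 36.7% with DMSO (35.0 to 38.5) and 37.5% with SB431542 (33.7 to 41.3). Among those that ended at base 17 it held 34.5% with DMSO, inside the interval of 33.5% to 38.9% around the 36.2% with SB431542.

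The difference between the libraries lay in the last base. Of the reads ending at base 16 or 17, 55.9% reached base 17 with DMSO (54.8 to 57.0) and 64.3% with SB431542 (62.2 to 66.5), 8.45 percentage points more. The difference was 7.60 points within start 1 and 8.72 within start 2, so it was found at both starts. Reads at base 17 numbered 1.42 for each read at base 16 within start 1 with DMSO and 1.96 with SB431542. Within start 2 these numbers were 1.28 and 1.85. Reads ending at base 15 were 0.544% and 0.657%, and reads ending at base 18 were 1.05% and 1.21%, with overlapping intervals. Since the longest read analysed is 17 nt, a fragment of start 1 can be seen only up to base 17 and one of start 0 only up to base 16. Starts 1 and 2 with ends 16 and 17 all lie inside this window. Within start 2, where base 18 could be seen, it was the last base of 3.02% with DMSO (2.40 to 3.75) and 3.33% with SB431542 (2.15 to 4.92).

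Levels of the single fragments divided by last base and not by length. In RPM the log2 ratio, again SB431542 over DMSO, was 0.07 (-0.05 to 0.18) for bases 1 to 17 and 0.18 (0.02 to 0.33) for bases 2 to 17. It was -0.40 (-0.56 to -0.24) for bases 1 to 16, -0.35 (-0.56 to -0.15) for bases 2 to 16 and -0.69 (-1.22 to -0.22) for bases 0 to 16. The fragments ending at base 16 were thus the lower ones in the SB431542 library whatever their start. Each fragment that ends at base 17 has a GC content below that of the fragment of the same start ending at base 16 (47.1% against 50.0% for start 1, 43.8% against 46.7% for start 2), while the SB431542 library as a whole had the higher GC content. The part of base composition in the difference between ends was not tested. Lengths over all reads of the 15 to 17 nt class were close: 49.5% were 17 nt with DMSO and 49.1% with SB431542. For miR-409-3p 40.2% and 43.6% were 17 nt.

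The same measure was taken for the 10 arms with at least 200 reads in each library, as the share of reads at the later of their 2 commonest last bases. It was higher with SB431542 for 7 of the 10, among which miR-27a-3p and miR-27b-3p share their divided reads and have the same value, the lowest. The difference of 8.45 points for miR-409-3p was the largest, and those of the other 9 lay between -0.82 and 5.52 points. The measure was not planned and was taken up with the reads of miR-409-3p in view, so that rank carries no test. miR-409-3p was the only one of the 10 whose counting intervals did not overlap. Overlap also depends on the number of reads, which was 1978 for miR-409-3p with SB431542. miR-293-3p, miR-25-3p and miR-382-5p had more reads and overlapping intervals. By size of the difference, next came miR-431-3p, from 53.1% (49.5 to 56.8) to 58.7% (52.3 to 64.8), and miR-296-3p, from 85.9% to 89.8%. With SB431542 miR-431-3p had only 267 reads and miR-296-3p 262, so their intervals were wider than that of miR-409-3p. For miR-293-3p, with the most reads, the shares were 62.2% (61.7 to 62.8) and 63.2% (62.1 to 64.2). By mean last base, miR-409-3p ranked 3 of 10 with a shift of 0.08 base, behind miR-431-3p with 0.13 and miR-296-3p with 0.13. With 1 library a group, spread between libraries in this measure is unknown.

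**Figure D4:**
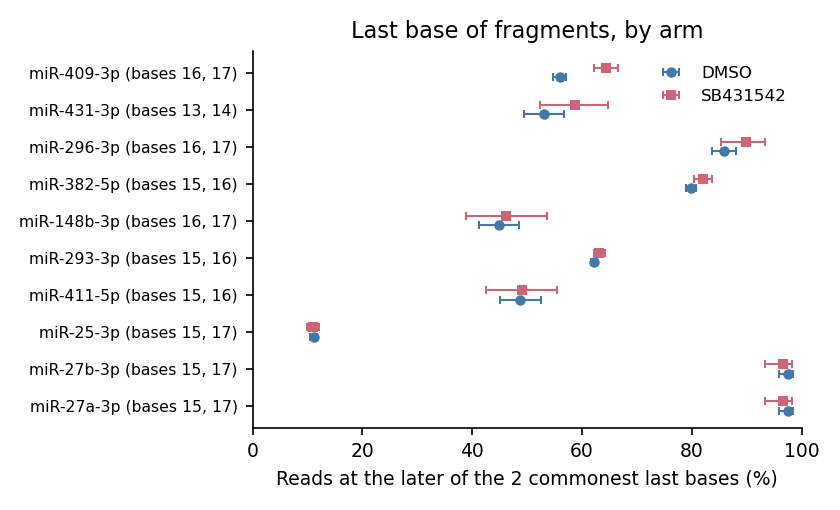
Share of reads at the later of the 2 commonest last bases (given in brackets, in bases of the mature arm) for the 10 arms with at least 200 reads in each library, in percent with 95% Clopper-Pearson intervals. For miR-409-3p the share is 55.9% with DMSO and 64.3% with SB431542, and for the other arms the intervals of the libraries overlap.

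The spread of starts set miR-409-3p beside few other arms. Of the 10, the nearest in the share at the commonest start, summed over both libraries, were miR-411-5p, miR-431-3p and miR-382-5p, which are also arms of the Dlk1-Dio3 domain. Their summed differences from miR-409-3p were 9.50, 36.5 and 65.4 points, against 71.8 for the next arm, miR-296-3p, so only miR-411-5p was close. The mature sequences of miR-411-5p, miR-431-3p and miR-382-5p are printed for comparison with the seed in capitals.
miR-411-5p: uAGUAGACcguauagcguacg
miR-431-3p: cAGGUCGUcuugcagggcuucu
miR-382-5p: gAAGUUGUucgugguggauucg

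miR-411-5p was nearest, with 54.4% of its reads at base 0 with DMSO (50.7 to 58.1) and 59.5% with SB431542 (53.3 to 65.6). miR-431-3p began at base -1, upstream of the RefSeq mature start by 2 bases, in 81.6% and 78.3%. miR-382-5p, which like miR-409-3p begins with g and then AA, had 95.1% at base 1 with DMSO and 93.8% with SB431542. At the same last base 16, start 2 held 5.38% of its reads of starts 1 and 2 with DMSO (4.81 to 5.99) and 6.57% with SB431542 (5.48 to 7.79), far below the 36.7% and 37.5% of miR-409-3p. A wide spread at 1 last base was not particular to miR-409-3p. For miR-411-5p, base 1 held 50.1% and 44.4% of reads of starts 0 and 1 ending at base 15. At last base 16 it held 38.1% with DMSO and 31.4% with SB431542. The other 6 arms had at least 96.6% of their reads at base 1. In miR-293-3p base 1 held 99.5% and 99.7%, so its lengths differed at the last base alone.

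**Figure D5:**
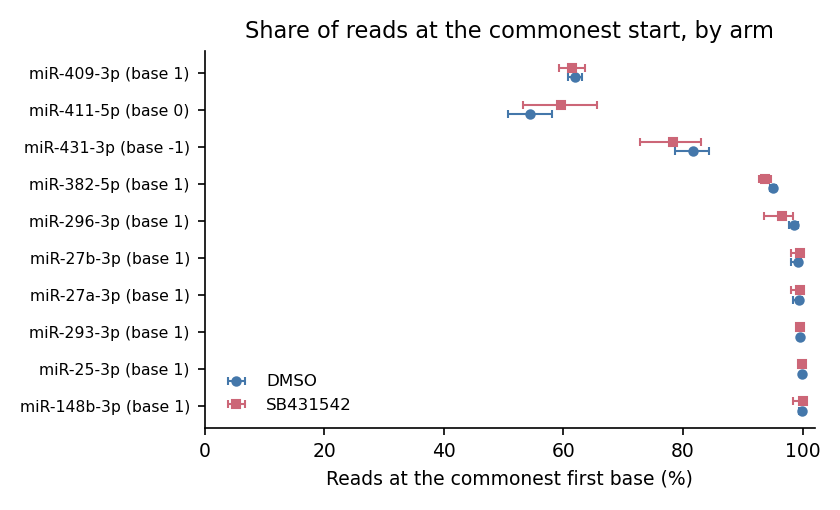
Share of reads at the commonest first base (in brackets, in bases of the mature arm) for the 10 arms with at least 200 reads in each library, in percent with 95% Clopper-Pearson intervals. miR-409-3p stands at 62.0% and 61.5%, near miR-411-5p, while miR-293-3p and miR-25-3p are above 99% in both libraries.

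Reads that differ from a miR-409-3p fragment of starts 0 to 2 by 1 base were rare. A changed last base was found in 6 reads with DMSO and 2 with SB431542, or 0.0796% (0.0292 to 0.173) and 0.101% (0.0122 to 0.364) of the arm. A changed first base was found in 10 and 3 reads, 0.133% (0.0636 to 0.244) and 0.151% (0.0312 to 0.442), and a changed inner base in 49 and 11 reads. Bases 16 and 17 of the arm are both A, so an A added after base 16 gives the same sequence as the hairpin's own base 17, and these cannot be told apart in the reads. Below the length minimum, fragments of the Mir409 hairpin fell away: 14 nt sequences had 31 reads with DMSO and 3 with SB431542, against 1150 and 256 for miR-409-3p at 15 nt.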

How the data were processed

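The authors deposited, for each library, a text table of distinct sequences with their length and raw read count, without normalization. Per the labels' protocols, RNA was taken with TRIzol and the library kit was TruSeq RNA. How small RNAs were selected, trimmed, filtered and aligned is not given in the sources used here. Build mm9 appears in the submitters' processing notes; coordinates here are those of GENCODE M21 on GRCm38, and none of the authors' was used.

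Sequences of 15 to 17 nt were matched exactly to GENCODE M21 transcripts on the sense strand. Set aside were sequences with a further match to another small RNA class, to an annotated tRNA-like gene or to over 5 other genes. Annotated miRNA genes with other names, such as Gm24321, were not counted as hairpins and are not in the totals. Reads matching several hairpins were divided equally. An arm is the part of the hairpin, split at its middle, that holds a fragment's midpoint. RPM are reads per 1000000 reads given to miRNA hairpins, which numbered 77925 in the DMSO library and 21831 in the SB431542 library. Log2 ratios used a pseudocount of 0.5 read. Intervals of shares are Clopper-Pearson, of reads exact Poisson and of ratios exact conditional binomial. Reads without molecular identifiers are not independent molecules, and the intervals cover counting error only. With 1 library a group no test was made. For the GC correction, sequences with 20 or more reads that match no miRNA hairpin gave a median ratio per bin of 10% GC, and SB431542 reads were divided by the ratio of their bin. Named arms are both arms of the members, the 3 with most reads among 34 other hairpins of the cluster, those of Mir154, Mir496a, Mir377 and Mir3072 with a read, and the 3 arms of at least 200 reads in each library nearest miR-409-3p in commonest-start share, with miR-293-3p; miR-296-3p and miR-25-3p were named after their values were seen. Members and lists were chosen with earlier results of these data known. The functions were tested on simulated data. Alternatives were other totals, edgeR 4.0.16 and DESeq2 1.42.0 factors (R 4.3.3), a pseudocount of 5, minimum lengths of 14, 16 and 17 nt, setting no sequence aside, the GC correction, distinct sequences and a mismatch at the last base. Scripts ran in Python 3.11.15 with matplotlib 3.10.9, pandas 2.3.3, scipy 1.17.1 and numpy 2.4.6.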

Additional observations from a re-analysis of the deposited data

How the results depend on the processing

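The main log2 ratios in RPM were -0.09 for the sum of the members and for miR-409-3p, and 0.18 for the other cluster hairpins; these followed the total. In that order they were -0.99, -0.99 and -0.72 per reads of 15 to 17 nt, -1.05, -1.05 and -0.77 per all reads in the file, -0.45, -0.45 and -0.18 with edgeR TMM factors, -0.34, -0.34 and -0.071 with DESeq2 size factors, -0.27, -0.27 and 0.00037 per miRNA reads outside the 5 top arms, and -0.17, -0.17 and 0.11 with no sequence set aside. The GC correction gave 0.018 for the sum and 0.019 for miR-409-3p, the opposite sign. Distinct sequences, with the DMSO library rarefied, gave 0.080 for miR-409-3p and 0.026 for the other cluster hairpins. The cause of these changes other than the total was not tested. A pseudocount of 5 reads and minimum lengths of 14, 16 and 17 nt left these 3 ratios within their counting intervals, as all 12 alternatives did for the members without miR-409-3p, although a pseudocount of 5 turned that sign (0.51). The same 5 reads were added to libraries of unlike totals, 77925 and 21831 miRNA reads, which by itself raises a ratio of few reads.

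The share of miR-409-3p reads at the commonest start was 96.7% with DMSO and 95.3% with SB431542 for 15 nt alone, 57.2% and 52.6% for 16 nt, 89.5% and 92.5% for 17 nt, and 30% and 37.5% of distinct sequences. The share ending at base 17, whose alternatives were chosen after seeing the data, was 58.6% with DMSO within start 1, and its difference between the libraries ran from 7.60 to 8.72 points over 5 alternatives. Arms at least 2-fold higher and lower numbered 3 and 2 of 45; with no read minimum 172 and 30 of 431, with at least 200 reads 3 and 1 of 26, with edgeR or DESeq2 factors 1 and 4, and with all reads as the total 0 and 18. Without a read minimum the unlike totals weigh on the count: 1 read in each library, as for miR-410-5p, gives a log2 ratio of 1.84. No paired analysis was possible because each group has 1 library. Apart from miR-409-3p no member arm had over 9 reads, so depth allows no description of their ratios, and reads over 17 nt are not analysed here.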
